A study of Rattus norvegicus with 9 samples.

Results

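Axon guidance genes were examined in cultures of rat cortical neurons, which also held RNA of other cell types. These genes encode the secreted or membrane-bound ligands that steer growing axons and the receptors that read them. The members were the 71 of 22050 genes in the deposited tables whose symbols belong to the semaphorins of classes 3 to 7, the plexins, the neuropilins, the ephrins and their Eph receptors, the Slits and Robos, and the netrins with netrin-Gs, Unc5 receptors and Dcc. They comprised 37 ligands, 33 receptors and Unc5cl, which shares the Unc5c name but is not known as a netrin receptor. RNA sequencing had been run on 9 libraries in 3 groups of 3, all from primary cortical neurons of Sprague Dawley rats at embryonic day 19. Neurons of the first group went without oxygen and glucose (oxygen-glucose deprivation, OGD, used to model stroke in a dish) and were given Wnt3a at 100 ng/ml and Rspondin 1 at 50 ng/ml, with 24 h stated for these proteins. Both are secreted: Wnt3a activates Wnt/beta-catenin signalling and Rspondin 1 strengthens that response. The second group underwent OGD alone, 4.5 h without glucose in 1% oxygen followed by return to normal oxygen and medium. The control group was left untreated. The labels give hours and oxygen for OGD alone and not for the first group, and no harvest time is named. OGD alone is called vehicle in the tables, although no vehicle is named for it.

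Guidance ligands act in pairs with receptors on the growth cone, the motile tip of an axon, and attract or repel it. Class 3 semaphorins are secreted and signal through a neuropilin that binds the ligand and a plexin that carries the signal, while most other semaphorins are anchored in the membrane and bind plexins directly. Ephrins sit on the membrane of one cell and bind Eph receptor tyrosine kinases on another, and both sides can signal. Slits repel axons through Robo receptors, and netrin-1 attracts through Dcc and repels through Unc5 receptors. In the cortex several of these genes remain in use after axons have arrived, at synapses, in migrating cells and in glia.

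Totals ran from 14285914 to 25048521 counts per library, and every pair of replicates differed by more than sampling noise (chi-square divided by its degrees of freedom, 3.6 to 28.4). OGD replicate 1 differed most from its group, at 28.4 and 22.3 against the other OGD libraries. The labels do not say whether the replicates were grown from different animals or as different cultures. The p-values therefore reflect only the spread among these 9 libraries, which may be technical. Of the 71 members, 67 had enough reads to be tested. Epha1, Ntn5, Robo4 and Unc5cl did not, with 29, 26, 10 and 22 reads over all 9 libraries. Among the tested members, Sema3g, Efna5 and Robo3 passed the filter on low counts through the control libraries, so their lower counts after OGD are partly a condition of being tested. Epha2 passed with few reads in every group. The gene length implied by FPKM and counts differed by over 5% between libraries for 10 of 61 members with enough reads. They were Epha3, Epha5, Epha10, Robo2, Nrp1, Unc5c, Sema3f, Sema4a, Sema5a and Sema6d. The spread was widest for Sema4a (43.15%), Unc5c (31.49%) and Sema5a (30.23%). For these 10 members the folds in FPKM and in counts can differ. Whether counting used strand is not stated, so reads shared by genes that overlap, on either strand, cannot be assigned to one of them.

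After OGD most guidance genes were lower than in control, and a smaller set was higher. By edgeR's quasi-likelihood test, with p-values adjusted by Benjamini-Hochberg over all tested genes and a threshold of 0.05, 48 of the 67 tested members fell (71.6%), 14 rose (20.9%) and 5 did not pass. The 48 include Sema3g, Efna5 and Robo3, which passed the filter on low counts through the control libraries. Over all 13693 tested genes, 36.8% fell, 36.3% rose and 73.1% passed in either direction. Falls of at least 2-fold were called for 36 members (53.7%, against 18.8% of all genes) and rises of at least 2-fold for 10 (14.9%, against 14.2%). The median log2 change of the tested members was -1.14, against 0.02 over all tested genes. Of 36 tested ligands 25 fell and 9 rose (median -1.07), and of 31 tested receptors 23 fell and 5 rose (median -1.28). By library-scaled counts (CPM) the 3 OGD libraries lay wholly below the 3 control libraries for 48 members and wholly above for 14. Together these were 92.5% of the tested members, against 75.1% of all genes (38.1% below and 37.0% above). The shares of all genes are the base for every family count below, and for every later statement that the groups lay apart.

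**Figure D1:**
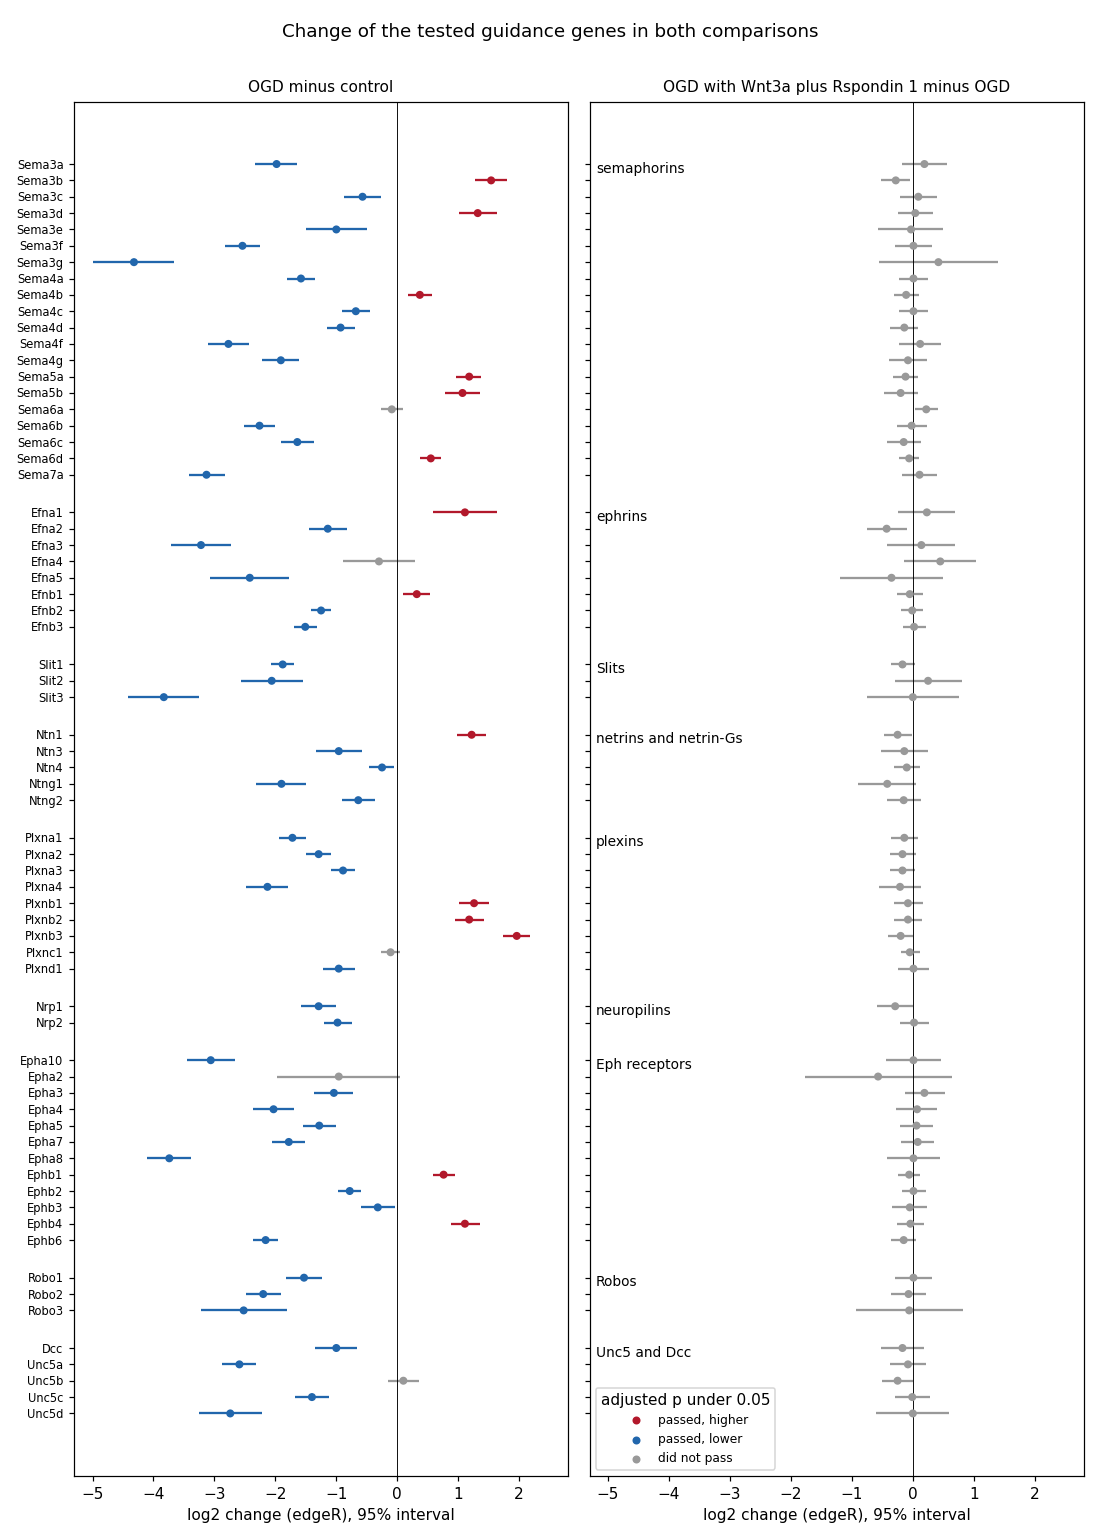
Log2 change of the 67 tested guidance genes with its 95% interval, for OGD minus control (left) and for OGD with Wnt3a plus Rspondin 1 minus OGD (right), grouped by family. On the left 48 genes passed as lower and 14 as higher, and on the right none passed.

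Markers of cell types moved in the same comparison, and they stand here beside every result on OGD. For each count below, the base is 36.8% of all tested genes lower and 36.3% higher. Markers of astrocytes, of the oligodendrocyte lineage and of neural progenitors were also read in control, so the RNA was not of neurons alone. All 12 neuron markers fell (median log2 change -2.63), with their summed level at 510 to 683 FPKM (fragments scaled to gene length and to library size) after OGD, against 2895 to 3033 FPKM in control. All 9 measured markers of excitatory neurons fell (median -2.44), and so did 9 of 10 inhibitory neuron markers (-2.37). Of 11 astrocyte markers 9 rose and Glul fell (median 1.22), with sums of 7029 to 7681 FPKM after OGD, against 2930 to 3103 FPKM in control. Of 11 markers of the oligodendrocyte lineage 7 rose and 3 fell (0.87), with sums of 1129 to 1136 FPKM after OGD, against 448 to 537 FPKM in control. Cnp averaged 464 FPKM after OGD, against 136 FPKM in control, and Cspg4 and Pdgfra were among the 3 that fell. Of 8 tested markers of neural progenitors 6 rose and Hes5 fell (1.47), with sums of 4010 to 4578 FPKM after OGD, against 1047 to 1179 FPKM in control. The progenitor sums were mostly Fabp7 and Vim, at means of 2738 and 1390 FPKM after OGD, against 815 and 197 FPKM in control. All 9 tested microglia markers rose (2.16), with sums of 41.4 to 52.3 FPKM after OGD, against 13.5 to 17.0 FPKM in control, and Ptprc stayed under 0.1 FPKM in every group. Of 3 tested endothelial markers Kdr and Tek rose and Ramp2 fell, with sums of at most 16.8 FPKM after OGD, against at least 30.0 FPKM in control. These sums were mostly Ramp2, at a mean of 14.6 FPKM after OGD, against 31.1 FPKM in control, and Cdh5, Cldn5, Flt1 and Emcn averaged under 0.1 FPKM in every group. Of 7 tested markers of mural cells and fibroblasts 3 rose, and Lum and Dcn fell. Their sums of 671 to 884 FPKM after OGD, against 92.7 to 116 FPKM in control, were mostly Tagln, at a mean of 749 FPKM after OGD, against 96.8 FPKM in control. The part of these shifts in the changes of the guidance genes was not tested, and in bulk RNA fewer cells of a type cannot be told apart from less RNA per cell.

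Semaphorins were the largest ligand family. After OGD 13 of 20 fell and 6 rose (65.0% and 30.0%, against 36.8% and 36.3% of all genes). Sema7a, a lipid-anchored semaphorin that binds plexin-C1 and integrins, had the highest level of any guidance gene in control and the largest fall among the semaphorins that averaged 1 FPKM or more in OGD or control. It had 15.3, 17.6 and 19.1 FPKM in OGD with Wnt3a plus Rspondin 1, and 14.6, 13.1 and 19.9 FPKM in OGD alone, against 135, 127 and 129 FPKM in control. All 6 libraries that went through OGD thus lay far below every control library. The count-based log2 change of Sema7a in OGD against control was -3.13 ± 0.14 (change ± SE, adjusted p = 8.50e-10), an 8.74-fold fall. Its share of the summed semaphorin FPKM was 6.56 ± 1.33% after OGD, against 31.8 ± 0.501% in control (mean ± SD, n = 3).

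The secreted class 3 semaphorins were split, with 5 of 7 lower and 2 higher. Sema3b rose most among all semaphorins. It had 17.1, 14.2 and 14.4 FPKM in OGD with Wnt3a plus Rspondin 1, and 20.9, 16.4 and 17.7 FPKM in OGD alone, against 6.06, 6.10 and 5.68 FPKM in control (log2 change of OGD against control 1.54 ± 0.12, adjusted p = 8.69e-08). The groups that went through OGD did not overlap control. Sema3d rose as well, by 1.32 ± 0.14, to 6.06 ± 1.31 FPKM after OGD, against 2.29 ± 0.142 FPKM in control. Sema3a, the classic repellent of cortical axons that acts through neuropilin-1, fell by 1.98 ± 0.16, to 1.77 ± 0.350 FPKM after OGD, against 6.53 ± 0.404 FPKM in control. Sema3f, a ligand of neuropilin-2, fell by 2.54 ± 0.13, and Sema3e, which can act through plexin-D1 without a neuropilin, by 1.00 ± 0.23. The change of Sema3c was smaller, at -0.57 ± 0.14. Sema3g had 3, 4 and 3 reads in the OGD libraries, against 75, 56 and 97 reads in control (log2 change -4.32 ± 0.31). It passed the filter on low counts through the control libraries. The summed level of class 3, with its rises and falls together, was 41.5 ± 3.40 FPKM after OGD, against 44.4 ± 1.05 FPKM in control.

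The membrane-bound classes differed from each other. In class 4, whose members include the plexin-B1 ligand Sema4d, 5 of 6 fell: Sema4f by 2.77 ± 0.16, Sema4g by 1.91 ± 0.14, Sema4a by 1.58 ± 0.11, Sema4d by 0.93 ± 0.10 and Sema4c by 0.68 ± 0.11 on the log2 scale. Sema4b alone rose in this class, by 0.37 ± 0.09. Both class 5 members, which carry thrombospondin repeats, rose: Sema5a by 1.18 ± 0.09 and Sema5b by 1.07 ± 0.13. Sema5a had 22.7, 19.2 and 21.7 FPKM after OGD, against 7.53, 9.50 and 7.84 FPKM in control, and Sema5b 36.7, 30.0 and 26.7 FPKM after OGD, against 14.1, 15.2 and 12.7 FPKM in control. In class 6, whose members bind class A plexins, Sema6b fell by 2.26 ± 0.11 and Sema6c fell by 1.64 ± 0.13, while Sema6d rose by 0.55 ± 0.07. Sema6a did not pass, with 31.7 ± 1.74 FPKM after OGD, against 31.2 ± 0.964 FPKM in control (log2 change -0.09 ± 0.09, adjusted p = 0.367).

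**Figure D2:**
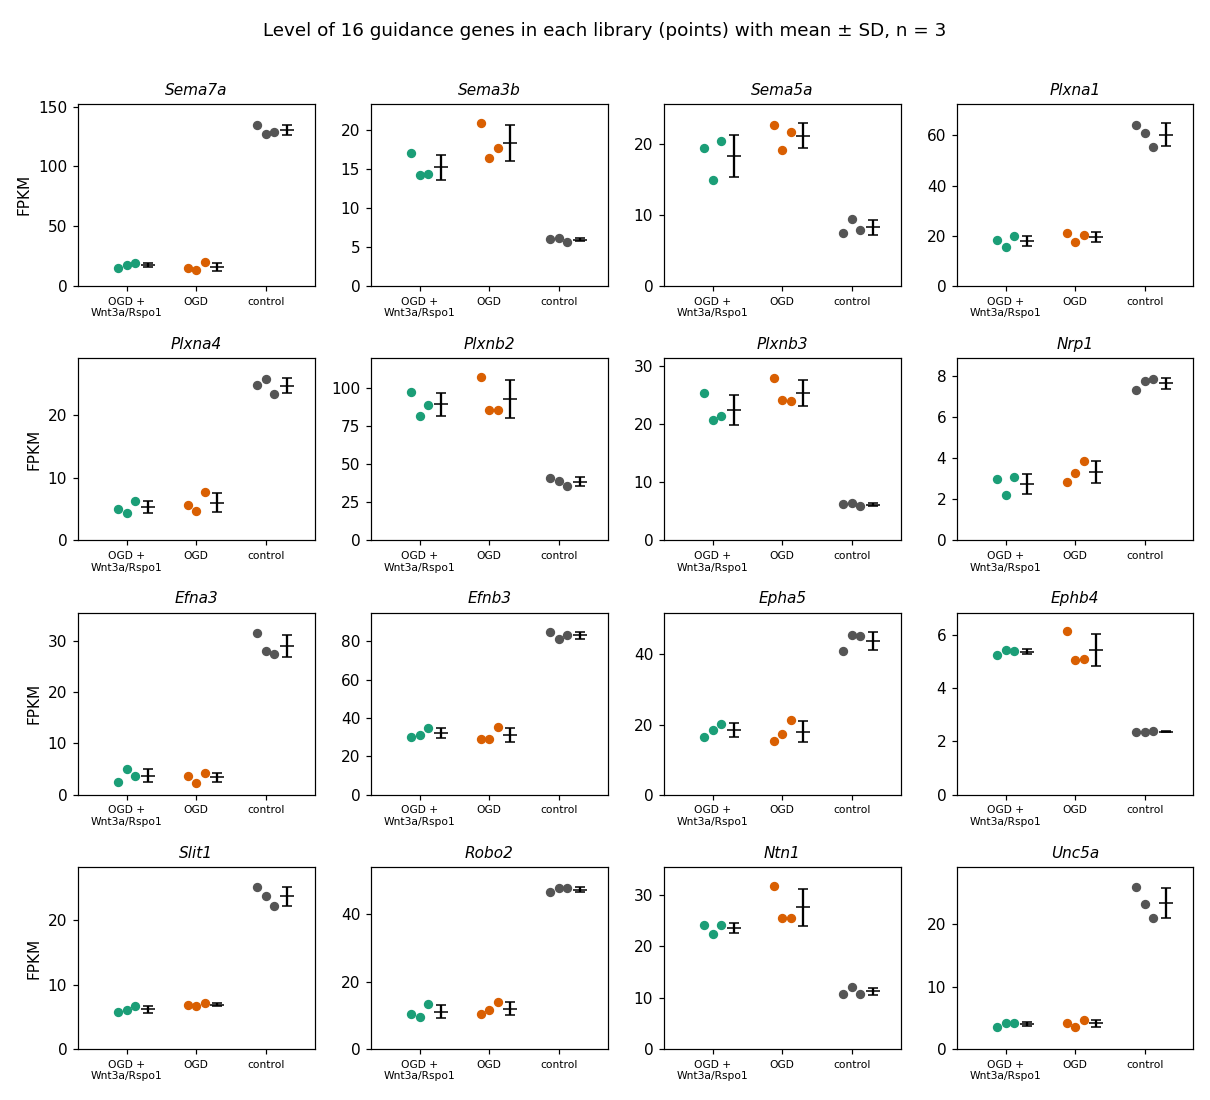
FPKM of 16 guidance genes in each library of OGD with Wnt3a plus Rspondin 1, OGD alone and control, with mean ± SD of 3 libraries beside the points and axes from 0. In every panel both OGD groups lie on the same side of control, with Sema7a at 13.1 to 19.9 FPKM in OGD alone against 127 to 135 FPKM in control and Plxnb2 at 85.1 to 107 FPKM in OGD alone against 35.5 to 41.1 FPKM in control.

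Of the 8 ephrins 5 fell, 2 rose and Efna4 did not pass. Efnb3, a transmembrane ephrin, was the most abundant ephrin. It had 30.1, 31.2 and 34.9 FPKM in OGD with Wnt3a plus Rspondin 1, and 29.2, 29.0 and 35.2 FPKM in OGD alone, against 85.1, 81.3 and 83.2 FPKM in control (log2 change of OGD against control -1.51 ± 0.09, adjusted p = 6.51e-09). Efna3, a lipid-anchored ephrin, fell most of those with at least 1 FPKM in a group. Its values were 2.54, 4.94 and 3.69 FPKM in OGD with Wnt3a plus Rspondin 1, and 3.65, 2.34 and 4.14 FPKM in OGD alone, against 31.5, 28.1 and 27.5 FPKM in control (log2 change -3.22 ± 0.22, adjusted p = 3.57e-08). For both genes the OGD libraries lay apart from control. Efna1 rose, with 2.18, 1.99 and 2.60 FPKM in OGD with Wnt3a plus Rspondin 1, and 2.23, 1.90 and 1.57 FPKM in OGD alone, against 0.940, 0.630 and 0.880 FPKM in control (log2 change 1.11 ± 0.24, adjusted p = 9.84e-04). These are low levels, from 15 to 67 reads per library. Efnb1 rose by 0.32 ± 0.10, a call lost without OGD replicate 2 (adjusted p = 0.054). Efna5, which passed the filter on low counts through the control libraries, fell by 2.42 ± 0.30. Efnb2 fell by 1.25 ± 0.08 and Efna2 by 1.14 ± 0.14. The lipid-anchored A ephrins together had 12.9 ± 1.81 FPKM after OGD, against 46.4 ± 2.74 FPKM in control, and the transmembrane B ephrins had 59.2 ± 1.60 FPKM after OGD, against 116 ± 1.92 FPKM in control.

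All 3 Slit genes fell. Slit1 was the most abundant, with 5.73, 6.01 and 6.76 FPKM in OGD with Wnt3a plus Rspondin 1, and 6.83, 6.63 and 7.11 FPKM in OGD alone, against 25.2, 23.8 and 22.2 FPKM in control (log2 change of OGD against control -1.88 ± 0.09, adjusted p = 1.40e-09). Slit3 fell most, with 0.110, 0.270 and 0.160 FPKM in OGD with Wnt3a plus Rspondin 1, and 0.150, 0.140 and 0.240 FPKM in OGD alone, against 2.50, 2.60 and 1.95 FPKM in control (log2 change -3.83 ± 0.27, adjusted p = 3.59e-08). Slit2 fell by 2.06 ± 0.24. No OGD library reached the lowest control library for any Slit, and by CPM 38.1% of all tested genes lay wholly below control as well.

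Netrin-1 rose while Ntn3 fell, the small fall of Ntn4 was lost in several fits and Ntn5 was not tested. Ntn1 had 24.2, 22.4 and 24.1 FPKM in OGD with Wnt3a plus Rspondin 1, and 31.8, 25.5 and 25.6 FPKM in OGD alone, against 10.8, 12.1 and 10.8 FPKM in control. The lowest OGD value was thus above the highest control value, and the log2 change of OGD against control was 1.22 ± 0.11 (adjusted p = 3.29e-07). Ntn3, which can also bind Dcc and Unc5 receptors, fell by 0.96 ± 0.17. Ntn4, a laminin-binding netrin of basement membranes, had a change of -0.25 ± 0.09 (adjusted p = 0.0284) that no longer passed with library totals (0.134), with only the 6 libraries compared (0.0588) and without OGD replicate 1 (0.0602) or 2 (0.0863) or control replicate 1 (0.0606) or 2 (0.127). The netrin-Gs are lipid-anchored relatives that bind synaptic adhesion partners and not Dcc. Ntng1 fell most in the family by 1.90 ± 0.19, with 0.320, 0.410 and 0.280 FPKM in OGD with Wnt3a plus Rspondin 1, and 0.380, 0.460 and 0.50 FPKM in OGD alone, against 1.44, 1.56 and 1.75 FPKM in control. Ntng2 fell by 0.64 ± 0.13, to 15.8 ± 2.77 FPKM after OGD, against 23.1 ± 2.24 FPKM in control.

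Among the receptors, the plexins divided by subfamily. Of all 9 plexins 5 fell and 3 rose (55.6% and 33.3%, against 36.8% and 36.3% of all genes). Class A plexins, the signalling partners of neuropilins and receptors of class 6 semaphorins, all fell (4 of 4). Class B plexins, which include the Sema4d receptor plexin-B1, all rose (3 of 3). Plxnb2 was the most abundant plexin, with 96.9, 81.6 and 88.9 FPKM in OGD with Wnt3a plus Rspondin 1, and 107, 85.7 and 85.1 FPKM in OGD alone, against 41.1, 38.9 and 35.5 FPKM in control (log2 change of OGD against control 1.18 ± 0.11, adjusted p = 4.99e-07). Plxnb1 had 79.9, 66.0 and 65.4 FPKM after OGD, against 29.8, 27.6 and 25.9 FPKM in control (1.26 ± 0.11, adjusted p = 3.39e-07). Plxnb3, known from mouse as a gene of oligodendrocytes, rose most of all guidance genes. It had 25.3, 20.6 and 21.3 FPKM in OGD with Wnt3a plus Rspondin 1, and 27.9, 24.1 and 24.0 FPKM in OGD alone, against 6.18, 6.36 and 5.87 FPKM in control (1.96 ± 0.10, a 3.90-fold rise, adjusted p = 2.69e-09). OGD replicate 1 was the highest OGD library for all 3 class B genes, and without it the log2 change of Plxnb3 was 1.88.

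The class A falls ran from 0.89 to 2.13 on the log2 scale. Plxna4 fell most, with 5.01, 4.45 and 6.34 FPKM in OGD with Wnt3a plus Rspondin 1, and 5.64, 4.74 and 7.67 FPKM in OGD alone, against 24.8, 25.9 and 23.5 FPKM in control (log2 change of OGD against control -2.13 ± 0.16, adjusted p = 9.70e-08). Plxna1 fell by 1.72 ± 0.11, to 19.5 ± 1.86 FPKM after OGD, against 60.2 ± 4.60 FPKM in control, Plxna2 by 1.29 ± 0.10 and Plxna3 by 0.89 ± 0.09. Plxnd1, the receptor of Sema3e, fell by 0.96 ± 0.12. Plxnc1, the receptor of Sema7a, did not pass, with 13.9 ± 0.335 FPKM after OGD, against 14.2 ± 0.496 FPKM in control (-0.11 ± 0.07, adjusted p = 0.197). The summed class B level was 3.43, 3.19 and 2.76 times the summed class A level in the OGD libraries, against 0.479, 0.471 and 0.474 times in the control libraries. The whole plexin family summed to 275 ± 26.9 FPKM after OGD, against 261 ± 16.2 FPKM in control.

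The promoters of the class B plexins are shown because these 3 genes rose together, and that of Sema7a because it had the highest level in control and fell. Each is the RefSeq window of 300 bases on the build GRCr8, 250 before and 50 after the gene's start, read 5′ to 3′ on the gene's strand, with CpG dinucleotides in capitals. The windows lie at chr8:118622911-118623210 on the + strand for Plxnb1, chr7:122137899-122138198 on the - strand for Plxnb2, chrX:156646624-156646923 on the + strand for Plxnb3 and chr8:67244068-67244367 on the + strand for Sema7a.
Plxnb1: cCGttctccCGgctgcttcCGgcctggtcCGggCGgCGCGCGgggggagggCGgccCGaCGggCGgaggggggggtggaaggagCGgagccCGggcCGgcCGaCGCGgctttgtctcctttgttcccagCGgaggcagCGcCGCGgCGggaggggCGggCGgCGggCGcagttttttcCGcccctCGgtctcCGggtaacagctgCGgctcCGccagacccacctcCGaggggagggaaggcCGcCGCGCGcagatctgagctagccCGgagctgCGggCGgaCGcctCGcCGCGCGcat
Plxnb2: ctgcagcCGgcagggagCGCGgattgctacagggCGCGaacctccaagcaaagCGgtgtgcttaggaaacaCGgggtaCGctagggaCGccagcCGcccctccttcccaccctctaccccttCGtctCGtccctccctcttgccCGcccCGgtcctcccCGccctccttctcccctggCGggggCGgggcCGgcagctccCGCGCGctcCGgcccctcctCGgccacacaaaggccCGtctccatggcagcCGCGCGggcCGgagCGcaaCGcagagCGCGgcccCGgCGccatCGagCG
Plxnb3: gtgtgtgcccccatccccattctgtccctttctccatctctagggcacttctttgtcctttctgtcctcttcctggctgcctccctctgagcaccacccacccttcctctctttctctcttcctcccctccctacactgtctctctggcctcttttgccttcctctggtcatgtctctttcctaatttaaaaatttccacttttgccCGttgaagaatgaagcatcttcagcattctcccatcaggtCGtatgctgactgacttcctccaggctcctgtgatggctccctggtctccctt
Sema7a: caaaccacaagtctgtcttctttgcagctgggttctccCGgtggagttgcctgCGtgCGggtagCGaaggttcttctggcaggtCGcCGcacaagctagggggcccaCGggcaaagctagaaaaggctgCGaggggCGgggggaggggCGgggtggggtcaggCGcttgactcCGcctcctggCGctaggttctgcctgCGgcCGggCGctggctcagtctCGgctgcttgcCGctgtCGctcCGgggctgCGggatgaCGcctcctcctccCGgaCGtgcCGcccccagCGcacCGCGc
The Plxnb1 and Plxnb2 windows hold 45 and 36 CpGs, which 1.66% and 5.43% of all 33469 rat windows of this length match or exceed, while the Plxnb3 window holds 2, which 86.4% match or exceed. The 3 class B genes thus have promoters of unlike composition. The Sema7a window holds 28 CpGs, which 12.7% match or exceed. For the core of the site bound by hypoxia-inducible factors, only the form ACGTG, or CACGT on the other strand, was searched. These letters occur once in the Sema7a window and in none of the class B windows. Windows were found for 56 members (57 windows, 2 of them for Robo1), and 13 of the 57 (22.8%) hold these letters, against 19.3% of all windows. The TCF/LEF core, ATCAAAG or CTTTGAT, is in 1 of the 57 (1.75%), against 3.63% of all windows. These shares were not matched for CpG: the member windows hold a median of 18 CpGs, against 7 in all windows. The hypoxia core contains a CpG and the TCF/LEF core does not, so neither share can be read as a trait of the members.

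**Figure D3:**
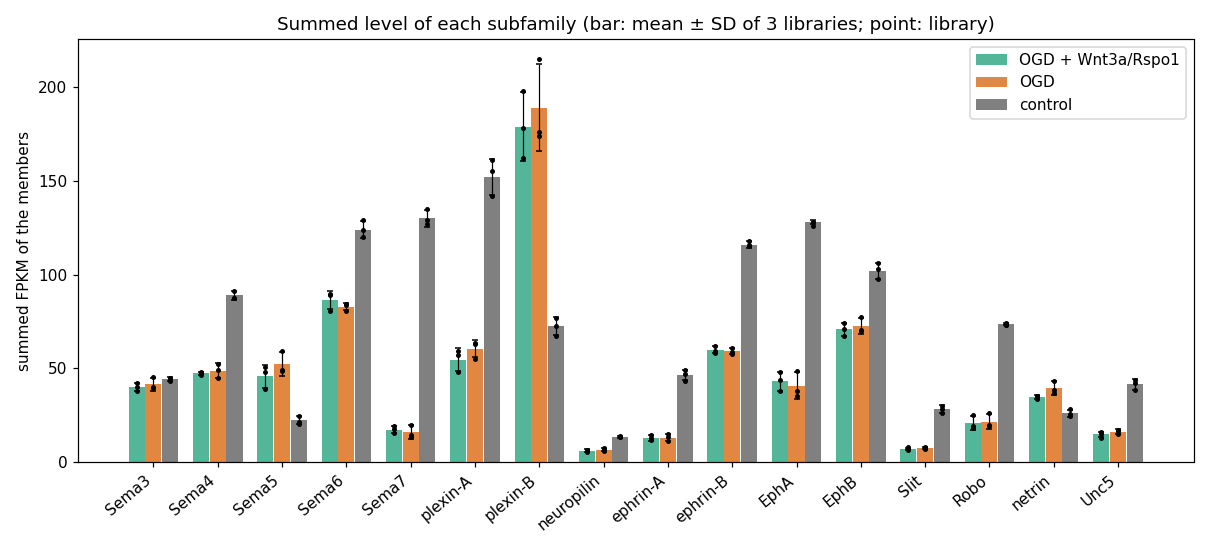
Summed FPKM of the members of each subfamily in OGD with Wnt3a plus Rspondin 1, OGD alone and control, with bars at the mean ± SD of 3 libraries and points for libraries. Plexin-B sums to 189 ± 23.2 FPKM after OGD against 72.4 ± 4.88 FPKM in control, and plexin-A to 60.4 ± 4.61 FPKM after OGD against 152 ± 9.64 FPKM in control.

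Both neuropilins, the ligand-binding receptors of class 3 semaphorins, fell. Nrp1 had 2.99, 2.19 and 3.08 FPKM in OGD with Wnt3a plus Rspondin 1, and 2.84, 3.27 and 3.88 FPKM in OGD alone, against 7.32, 7.75 and 7.86 FPKM in control (log2 change of OGD against control -1.29 ± 0.13, adjusted p = 1.50e-06). Nrp2 fell by 0.98 ± 0.11, to 3.18 ± 0.322 FPKM after OGD, against 5.90 ± 0.504 FPKM in control. Every OGD value of either gene was under every control value.

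Of 12 tested Eph receptors 9 fell and 2 rose. Of 7 tested EphA genes 6 fell and none rose. Epha5 was the most abundant, with 16.5, 18.5 and 20.3 FPKM in OGD with Wnt3a plus Rspondin 1, and 15.3, 17.4 and 21.2 FPKM in OGD alone, against 41.0, 45.7 and 45.2 FPKM in control (log2 change of OGD against control -1.28 ± 0.12, adjusted p = 8.62e-07). Epha8 fell most, with 1.02, 1.02 and 0.820 FPKM in OGD with Wnt3a plus Rspondin 1, and 0.830, 0.780 and 1.23 FPKM in OGD alone, against 13.3, 11.4 and 10.9 FPKM in control (-3.74 ± 0.17, a 13.4-fold fall, adjusted p = 1.06e-09). Epha10, which lacks kinase activity, fell by 3.06 ± 0.18, Epha4 by 2.03 ± 0.16, Epha7 by 1.78 ± 0.12 and Epha3 by 1.04 ± 0.15. Epha2 did not pass (-0.96 ± 0.47, adjusted p = 0.081) with 5 to 12 reads in the OGD libraries, against 7 to 29 reads in control. It passed without OGD replicate 1 (adjusted p = 0.0149) or without control replicate 2 (0.0382).

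Of the 5 EphB genes 2 rose and 3 fell. Ephb4, a receptor of ephrin-B2, had 5.25, 5.43 and 5.39 FPKM in OGD with Wnt3a plus Rspondin 1, and 6.13, 5.05 and 5.10 FPKM in OGD alone, against 2.36, 2.33 and 2.38 FPKM in control (log2 change of OGD against control 1.11 ± 0.11, adjusted p = 8.27e-07). Ephb1 rose by 0.76 ± 0.08, to 31.3 ± 1.55 FPKM after OGD, against 17.4 ± 0.907 FPKM in control. Ephb6, which lacks kinase activity, fell by 2.16 ± 0.09, to 10.9 ± 1.16 FPKM after OGD, against 45.9 ± 1.71 FPKM in control, and Ephb2 by 0.78 ± 0.09. Ephb3 had a change of -0.32 ± 0.13 (adjusted p = 0.0417), and its OGD values of 8.99, 6.32 and 6.51 FPKM overlapped the control values of 8.96, 8.62 and 7.99 FPKM. Its call was lost with library totals (adjusted p = 0.109), with only the 6 libraries compared (0.0918) and without OGD replicate 2 (0.171) or 3 (0.15) or control replicate 1 (0.127) or 2 (0.105). Both summed levels fell: EphB to 72.5 ± 4.26 FPKM after OGD, against 102 ± 4.35 FPKM in control, and EphA further. EphA summed to 40.8 ± 7.11 FPKM after OGD, against 128 ± 1.21 FPKM in control. The EphB sum was thus 2.19, 1.84 and 1.43 times the EphA sum in OGD, against 0.840, 0.806 and 0.761 times in control.

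All 3 tested Robo genes fell, as all 3 Slit genes did, although Robo3 passed the filter on low counts through the control libraries. Robo2 had 10.5, 9.37 and 13.2 FPKM in OGD with Wnt3a plus Rspondin 1, and 10.3, 11.6 and 14.0 FPKM in OGD alone, against 46.4, 47.8 and 47.6 FPKM in control, so that no OGD library came near a control library (log2 change of OGD against control -2.20 ± 0.13, adjusted p = 8.64e-09). Robo1 fell by 1.53 ± 0.14, to 9.53 ± 2.12 FPKM after OGD, against 25.8 ± 0.717 FPKM in control. Robo3, which in mouse sets Slit responses of axons that cross the midline, had 10, 10 and 5 reads in OGD, against 60, 36 and 64 reads in control. Robo4, known from endothelium, had 0 to 2 reads in each library.

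Receptors of netrin-1 were lower or did not pass, beside the higher level of Ntn1. Unc5a was the most abundant, with 3.56, 4.14 and 4.22 FPKM in OGD with Wnt3a plus Rspondin 1, and 4.23, 3.55 and 4.68 FPKM in OGD alone, against 25.9, 23.3 and 21.0 FPKM in control (log2 change of OGD against control -2.59 ± 0.13, adjusted p = 1.94e-09). Unc5d fell most, with 0.740, 0.910 and 1.12 FPKM in OGD with Wnt3a plus Rspondin 1, and 0.800, 0.610 and 1.37 FPKM in OGD alone, against 5.37, 6.53 and 5.31 FPKM in control (-2.74 ± 0.24, adjusted p = 2.83e-07). Both were apart from control in all OGD libraries. Unc5c fell by 1.40 ± 0.13 and Dcc, the attractive receptor, by 1.00 ± 0.16, to 2.55 ± 0.204 FPKM after OGD, against 4.82 ± 0.536 FPKM in control. Unc5b, also known from endothelium, did not pass, with 10.1, 8.92 and 8.66 FPKM after OGD, against 8.50, 8.26 and 7.62 FPKM in control (0.10 ± 0.12, adjusted p = 0.48). Ntn1 had 1.62, 1.48 and 1.31 times the summed FPKM of Dcc and Unc5a to Unc5d in the OGD libraries, against 0.222, 0.253 and 0.252 times in the control libraries.

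These changes reordered the family by level per length. In OGD with Wnt3a plus Rspondin 1 the first 5 of the 71 genes by mean FPKM were Plxnb2, Plxnb1, Sema6a, Efnb3 and Ephb1. In OGD alone they were Plxnb2 (92.7 ± 12.8 FPKM), Plxnb1 (70.4 ± 8.19), Sema6a (31.7 ± 1.74), Sema6d (31.7 ± 1.48) and Ephb1 (31.3 ± 1.55). Places 3 to 7, which Sema5b (31.1 ± 5.10 FPKM) and Efnb3 (31.1 ± 3.50 FPKM) complete, did not differ beyond their spread. In control the order was Sema7a (130 ± 4.62 FPKM), Efnb3 (83.2 ± 1.89), Plxna1 (60.2 ± 4.60), Robo2 (47.2 ± 0.759) and Ephb6 (45.9 ± 1.71), with the last pair within their spread of each other. Plxnb3 was at place 9 after OGD, against place 49 in control, and Sema7a at place 18 after OGD, against place 1 in control. All ligands together summed to 393, 356 and 382 FPKM in the OGD libraries, against 672, 650 and 635 FPKM in control, and all receptors to 435 ± 27.8 FPKM after OGD, against 624 ± 21.9 FPKM in control. The ligand sum was 0.848, 0.873 and 0.879 times the receptor sum in the OGD libraries, against 1.04, 1.03 and 1.06 times in the control libraries, with no overlap. Much of the fall in the ligand sum was Sema7a, at 15.9 ± 3.61 FPKM after OGD, against 130 ± 4.62 FPKM in control. The ratio therefore does not describe ligands as a class.

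**Figure D4:**
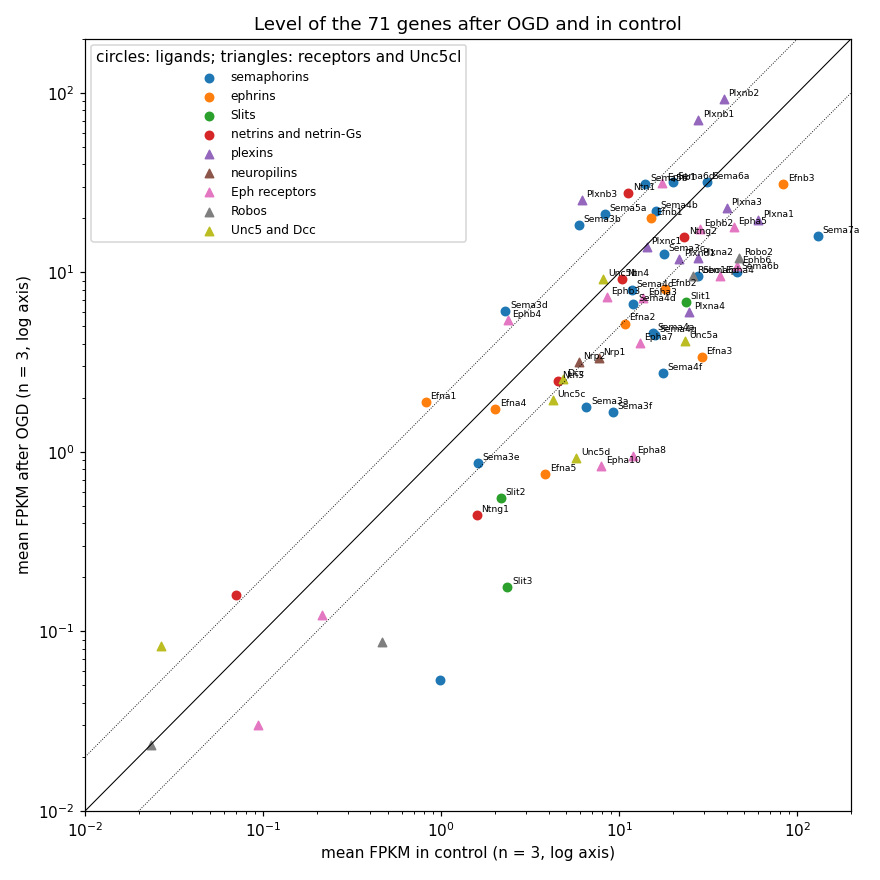
Mean FPKM of the 71 guidance genes after OGD (vertical, log axis) and in control (horizontal, log axis), n = 3 libraries each, with a line of equality and dotted lines at 2-fold, and names for genes of at least 1 FPKM in either group. Plxnb3, Sema3b, Sema3d and Ntn1 lie above the upper dotted line, and Sema7a, Efna3, Epha8 and Slit3 lie far below the lower one.

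Genes that act with these ligands and receptors also passed more often as lower than as higher. Of 20 other guidance cues, co-receptors and adhesion molecules, 13 fell and 4 rose after OGD (65.0% and 20.0%, against 36.8% and 36.3% of all genes), with a median log2 change of -0.88, against 0.02 over all genes. Cntn1, an axonal adhesion molecule, fell by 2.16 ± 0.11 and Dscam, a receptor that can also bind netrin-1, fell by 1.68 ± 0.11. Ryk, a Wnt receptor of axons, rose by 0.64 ± 0.08 and the ankyrin-binding adhesion gene Nfasc by 0.30 ± 0.10. Without control replicate 3 only 1 of the 4 rises passed. Of 56 tested cytoplasmic effectors 39 fell and 12 rose (69.6% and 21.4%), with a median of -0.57. Ngef, the exchange factor ephexin-1 that acts below EphA4, fell by 3.38 ± 0.11 and the actin-binding gene Ablim3 by 3.19 ± 0.13, while the Rac activator Dock1 rose by 1.56 ± 0.07 and the small GTPase gene Rras by 1.19 ± 0.10.

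Wnt3a plus Rspondin 1 was set against OGD alone to ask which genes the proteins regulated. No guidance gene passed: of the 67 tested members 0 were higher and 0 lower at an adjusted p of 0.05 by edgeR, and DESeq2 called 0 as well. Over all genes 0.197% passed, 0.175% as higher and 0.0219% as lower. At an unadjusted p under 0.05 there were 4 members, and 5.73% of all genes were there. The median log2 change of the members was -0.05, with single changes from -0.57 to 0.45. The comparison shares its OGD libraries with that of OGD against control.

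Values follow for the 4 members with the smallest unadjusted p, none of which passed after adjustment. Efna2 had 4.04, 3.84 and 3.76 FPKM in OGD with Wnt3a plus Rspondin 1, against 5.83, 4.39 and 5.34 FPKM in OGD alone (log2 change -0.43 ± 0.15, edgeR adjusted p = 0.639). Sema6a had 39.7, 33.4 and 39.7 FPKM with the proteins, against 33.5, 31.3 and 30.1 FPKM in OGD alone (0.22 ± 0.09, adjusted p = 0.702), so that the lowest treated library was below the highest OGD library. Sema3b had a change of -0.28 ± 0.11 (adjusted p = 0.748) and Ntn1 of -0.25 ± 0.10 (adjusted p = 0.809). By CPM the groups were apart for 2 members, Efna2 and Ntn1, both lower with the proteins (2.99%, against 4.83% of all genes lower, 4.74% higher and 9.57% in either direction).

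The intervals bound the difference between these libraries, each for its own gene, and rest on the same spread as the p-values. For 63 of the 67 members the 95% interval of the log2 change lay inside -1 to 1, a 2-fold change either way, and for 46 it lay inside -0.5 to 0.5. All 9 plexins were among the 63, with changes from -0.21 to 0.01. The widest interval was that of Epha2, which reached -1.77. None of the 20 further guidance genes and none of the 56 effectors passed in this comparison by edgeR. Among the markers, Gja1 rose by 0.38 ± 0.06 (adjusted p = 0.0404) and Glul fell by 0.59 ± 0.07 (adjusted p = 0.00293), both of astrocytes, and the call of Gja1 was lost with RLE size factors, with only the 6 libraries compared, without OGD replicate 2 or 3 and without any 1 of the 3 libraries given the proteins.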

How the data were processed

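The files hold read counts and FPKM for each of 22050 genes in 9 libraries. The authors deposited raw read counts per gene, with FPKM beside them, in tables of pairwise comparisons, and the 6 columns repeated between tables were identical. Per the submitters' processing notes, the tools include Bowtie 0.12.2 and the builds are mm8 and mm9, which are mouse although the samples are rat. How reads were counted is not stated. Nothing maps the FPKM to a stated gene length.

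Counts were fitted with edgeR 4.0.16 in R 4.3.3 (limma 3.58.1), using filterByExpr (minimum count 10, total 15), TMM factors (0.943 to 1.033) and the robust quasi-likelihood test over all 9 libraries with 3 group means and 6 residual degrees of freedom. Adjustment was by Benjamini-Hochberg across all 13693 tested genes. Intervals are 95%. The script was tested on simulated data. Levels between genes are FPKM, with 1 FPKM in a group mean as the minimum for naming a family's largest rise and fall beside its most abundant gene; other members are given after their values were seen. Class B plexin and Sema7a promoters were chosen in the same way. A count of 3 corresponds to 0.12 to 0.21 CPM, covering counting error only. The members and gene lists were chosen with earlier results of these data known. Alternatives were DESeq2 1.42.0, RLE factors, library totals, no filter, no robust estimation, only the 6 libraries compared, a replicate block, and each library left out. Neurons given Wnt3a plus Rspondin 1 without OGD were not analysed here.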

Additional observations from a re-analysis of the deposited data

How the results depend on the processing

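Over 871 recomputed changes of the 67 tested members in OGD against control, none reversed, 13 lost their call and 2 gained one. The 4 genes concerned were Ephb3, Ntn4, Efnb1 and Epha2, whose values stand in the report. Over all alternatives 13 to 14 members rose and 46 to 48 fell, and 0 passed between OGD with Wnt3a plus Rspondin 1 and OGD alone. Of 208 recomputed counts of guidance genes and of the 2 lists of further pathway genes, 1 moved by over 1.5 times: other guidance cues, co-receptors and adhesion molecules that rose ranged from 1 to 4 when single libraries were left out, and was 1 without control replicate 3, a fit over fewer samples. Of 468 recomputed counts of the cell type marker lists 11 moved, all between OGD with Wnt3a plus Rspondin 1 and OGD alone: astrocyte markers that rose went to 0 in 7 fits, where Gja1 lost its call, and 1 inhibitory neuron marker rose with DESeq2 or without OGD replicate 3. In the same comparison 1 neural progenitor marker fell with DESeq2 or without replicate 1 of the libraries given the proteins. Library totals moved the median of all genes by 0.09 on the log2 scale. With the replicate block 14 members rose and 48 fell in OGD against control, and 0 passed in the other comparison. Deviations of libraries with the same number correlated at 0.27, -0.06 and 0.11 in OGD against control and at 0.23, 0.07 and 0.27 in the other comparison. The main fit did not take the numbers as pairs. In OGD against control not every library correlated best with its own number. In the other comparison each library did, so pairing remains possible there, and the fit with the replicate block covers it. Depth limits the genes of few reads most, Epha2, Efna4, Efna5 and Sema3g, whose intervals for Wnt3a plus Rspondin 1 against OGD reached past 2-fold.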
